A study of Mus musculus with 6 samples.

Results

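The genes described here are the nuclear-encoded subunits of the mitochondrial respiratory chain and of ATP synthase, measured by RNA sequencing of brain from Kdm6a deficient and wild-type mice. They were taken from the deposited count table by symbol. A member starts with Ndufa, Ndufb, Ndufc, Ndufs, Ndufv, Uqcr, Cox4 to Cox8 or Atp5, or is Sdha, Sdhb, Sdhc, Sdhd, Cyc1 or Cycs, and the assembly factors with Ndufaf symbols and symbols ending in -ps were dropped. This left 89 of 43346 symbols, with 38 in complex I, 4 in complex II, 9 in complex III, 1 for cytochrome c, 18 in complex IV and 19 in complex V. The grouping follows the symbol, so Ndufa4, which is now known to sit in complex IV, stands with complex I, and Atp5s and Atp5sl stand with complex V although they are not structural subunits of the enzyme. Of the 89, 86 had counts and all 86 passed the expression filter. The other 3 stood at 0 in every library. They are Cox8c, which is known from testis, and Atp5l-ps1 and Atp5l-ps2, both annotated as pseudogenes.

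The respiratory chain moves electrons from NADH, through complex I, and from succinate, through complex II, to ubiquinone, complex III, cytochrome c and finally oxygen at complex IV. Complexes I, III and IV pump protons across the inner mitochondrial membrane, and complex V, the ATP synthase, uses their return to make ATP. The mitochondrial genome encodes a small set of core subunits of complexes I, III, IV and V, and the cell nucleus encodes the rest, including all of complex II. Neurons draw most of their ATP from this pathway. Several complex IV subunits have a widely expressed isoform and another one typical of muscle, lung or testis.

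The study compared 3 adult male Kdm6a deficient mice with 3 adult male wild-type littermates, all on the C57BL/6 strain. Deficient mice came from crossing females with a loxP-flanked Kdm6a to males carrying Thy1-Cre, a transgene whose promoter is active mainly in neurons. Kdm6a, also known as Utx, lies on the X chromosome and encodes a demethylase of histone H3 lysine 27. The labels give the source as brain, without a region, and do not say whether the wild-type littermates carried the Cre transgene, which day or litter a mouse came from, or whether the numbers of the mice pair them. The brain is a mixture of cells, so fewer cells of a type and less RNA per cell cannot be told apart in these values.

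The libraries held 18542590 to 24531408 counts, of which the members took 1.03% to 1.15% and mitochondrial transcripts 3.03% to 3.46%. No pair of libraries was a duplicate. Kdm6a itself had 500, 621 and 515 counts in the deficient brains against 777, 647 and 821 in the wild-type brains. Its groups did not overlap in counts, at a log2 fold change of -0.51 (SE 0.065, adjusted p = 0.0078 by edgeR). Neuron markers, among them Snap25, Syt1 and Thy1, were all counted and summed to 10834 to 11234 CPM in the deficient and 10993 to 11100 CPM in the wild-type mice. CPM are counts scaled to a common library size.

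No subunit passed a false discovery rate (FDR) of 5%. The smallest adjusted p among the 86 was 0.69, for Ndufs7 (edgeR quasi-likelihood test, adjusted over 15030 genes). Over all genes tested, 7 passed, or 0.0466%, with 2 higher (0.0133%) and 5 lower (0.0333%) in the deficient brains. Without adjustment, 6 of the 86 subunits had a p under 0.05 and a higher level in the deficient mice, or 6.98%, beside 2.56% of all genes, and 0 were lower at that p, beside 3.3% of all genes. DESeq2 also put 0 subunits past 5% FDR, with 3 at an unadjusted p under 0.05.

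The differences were small and mostly in the same direction. The log2 fold change, deficient over wild type, was above 0 for 76 of the 86 subunits (88.4%), beside 50.8% of all genes tested. Its median was 0.062 over the subunits and 0.002 over all genes. By complex, the median stood at 0.062 for complex I (36 of 38 above 0), 0.037 for complex II (4 of 4), 0.086 for complex III (8 of 9), 0.044 for complex IV (12 of 17) and 0.069 for complex V (15 of 17). With 1 mouse left out, these medians ranged from 0.042 to 0.095 for complex I, from 0.0041 to 0.066 for complex II, from 0.062 to 0.11 for complex III, from -0.031 to 0.072 for complex IV and from 0.041 to 0.10 for complex V. The lowest came without wild-type mouse 1 for complexes I to III and without deficient mouse 1 for complexes IV and V. The highest came without wild-type mouse 3, or for complex IV without deficient mouse 3. Corrected for transcript length and GC content, they were 0.032, 0.020, 0.051, 0.0079 and 0.038 in the same order. In CPM the median subunit was 4.45% higher in the deficient mice, while the median SD within a group was 4.73% of the mean.

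**Figure D1:**
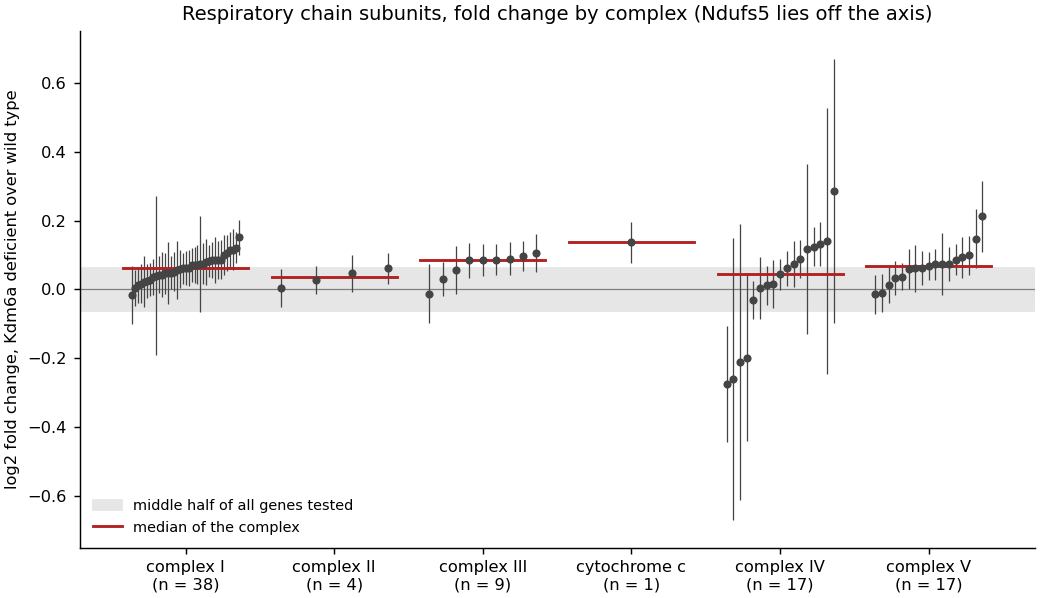
Each point is the log2 fold change of 1 subunit, Kdm6a deficient over wild type (3 mice each), with its standard error as a bar, ordered by size within each complex. Red lines mark the median of each complex, from 0.037 in complex II to 0.136 for the single gene of cytochrome c, and the grey band spans the first to the third quartile of all 15030 genes tested. Most points lie above 0, within or just over the grey band, and Ndufs5 at -1.36 lies off the axis.

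The mice of the 2 genotypes overlapped over the whole set of subunits. Relative to the wild-type mean of each gene, the median log2 CPM of the 86 subunits was 0.0996, 0.031 and 0.056 in the deficient mice (1 to 3) against -0.0496, -0.0145 and 0.069 in the wild-type mice (1 to 3). Deficient mouse 1 was the highest and wild-type mouse 1 the lowest, and wild-type mouse 3 stood above deficient mice 2 and 3. Deficient mouse 1 had the highest CPM of all 6 mice for 46 of the 86 subunits, and wild-type mouse 1 the lowest for 50. Wild-type mouse 3 was above deficient mouse 2 for 55 subunits and above deficient mouse 3 for 48. Single mice therefore set much of the size: without wild-type mouse 3 the median log2 fold change was 0.097 with 79 subunits above 0 and 21 at an unadjusted p under 0.05, and without deficient mouse 1 it was 0.041 with 64 above 0 and 1 at that p.

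**Figure D2:**
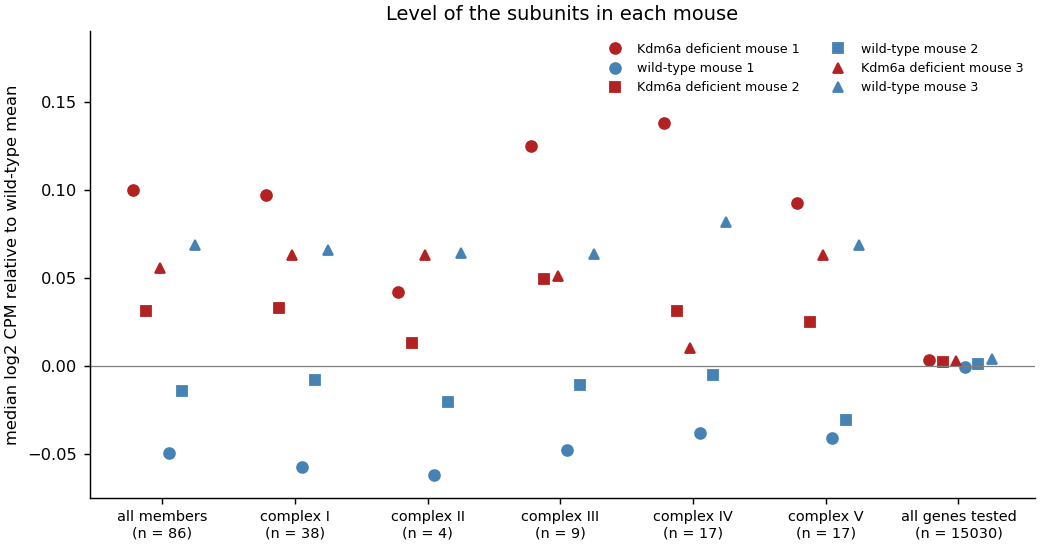
The vertical axis gives the median log2 CPM of a group of subunits in each mouse, relative to the mean of the 3 wild-type mice, for all 86 subunits, for complexes I to V and, at the right, for all 15030 genes tested. Red symbols are deficient and blue symbols wild-type mice. Wild-type mouse 3 lies among the deficient mice for all subunits, at 0.069 beside 0.031 to 0.0996, while all genes lie close to 0 in every mouse.

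Transcript length moved with the same mice. The subunits are encoded by short transcripts, with a median of 787 bases beside 2994 bases over all genes. Among 11649 other genes, the log2 level was taken relative to the wild-type mean of each gene. Per doubling of transcript length this relative level changed by -0.0499, -0.0146 and -0.0133 in the deficient mice (1 to 3). The same slope was 0.0252, 0.0102 and -0.0354 in the wild-type mice (1 to 3), which balance each other because of that reference. Deficient mouse 1 and wild-type mouse 3, in which subunits stood highest, thus had the steepest relative excess of short transcripts, and wild-type mouse 1, in which they stood lowest, had the opposite slope. Once length and GC content of the transcripts were corrected for, 64 of the 86 subunits were above 0, their median log2 fold change was 0.035, and 3 had an unadjusted p under 0.05. What the length slope itself reflects was not tested.

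Complex I, the entry point for electrons from NADH, held the smallest p of all subunits. Ndufs7, a core subunit that holds the last iron-sulfur cluster before ubiquinone, had 95.5, 87.8 and 92.2 CPM in deficient mice 1 to 3 and 80.1, 81.2 and 86.6 CPM in wild-type mice 1 to 3. All deficient mice stood above all wild-type mice. The means were 91.8 ± 3.89 and 82.7 ± 3.49 CPM (SD, n = 3 each), 11.1% higher in the deficient mice, at a log2 fold change of 0.15 (SE 0.051, unadjusted p = 0.0101 and adjusted p = 0.69 by edgeR). Its direction held in the 14 alternative fits, and its adjusted p passed 0.05 in none of them. Ndufs8, the iron-sulfur subunit beside it in the complex, had 74.7, 69.5 and 70.9 CPM in the deficient and 62.9, 70.6 and 66.5 CPM in the wild-type mice. Its groups overlapped, because wild-type mouse 2 stood above deficient mouse 2 (log2 fold change 0.11, SE 0.054, adjusted p = 0.86 by edgeR).

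In complex I, 5 genes had deficient and wild-type mice that did not overlap, Ndufs7 among them. In 4 of the 38 the deficient mice stood above, beside 5.7% of all genes, and in 1 below, beside 5.49% of all genes. Ndufs1, a core iron-sulfur subunit of the arm that oxidises NADH, had 126.9, 125.2 and 127.6 CPM in the deficient and 115.1, 123.5 and 119.97 CPM in the wild-type mice. The deficient mice were close to each other, and the lowest of them was just above wild-type mouse 2 (log2 fold change 0.083, SE 0.047, adjusted p = 0.887 by edgeR). Ndufb11, an accessory subunit of the membrane arm, had 92.8, 87.6 and 89.9 CPM against 84.97, 82.0 and 81.4 CPM, again with every deficient mouse above every wild-type mouse. Its log2 fold change was 0.12 (SE 0.046, adjusted p = 0.77 by edgeR). Ndufv2, an iron-sulfur subunit of the NADH-oxidising arm, differed by 0.061 (SE 0.045), and Ndufs5 was the only one with the deficient mice below. Ndufb5 and Ndufa1, accessory subunits of the membrane arm, overlapped between the groups at log2 fold changes of 0.11 (SE 0.052) and 0.12 (SE 0.0595).

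Ndufs5 stood apart from the other subunits. It encodes a small accessory protein of complex I and lies on chromosome 4 at 123712710 to 123718202 (GRCm38, minus strand). It had 12, 203 and 170 counts in the deficient mice (1 to 3) against 392, 319 and 228 counts in the wild-type mice (1 to 3), or 0.54, 8.24 and 8.32 CPM against 17.4, 17.3 and 9.54 CPM. Every deficient mouse was below every wild-type mouse, and deficient mouse 1 stood at 6.5% of the lowest other library. The log2 fold change was -1.36 (SE 0.81, unadjusted p = 0.166 and adjusted p = 0.901 by edgeR), and -0.82 without deficient mouse 1. The SD among the deficient mice was 78.5% of their mean, beside a median of 4.73% over the subunits.

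The low count in deficient mouse 1 was not seen in other genes of that library. Of 11687 genes with over 5 CPM in any library, Ndufs5 was the only one for which deficient mouse 1 stood under 30% of the lowest other library. The same rule took 1 gene, Eno1b, in wild-type mouse 2 and 0 in each of the other 4 libraries. The adjacent genes had ordinary levels there. Akirin1, on one side, had 50.2 CPM in deficient mouse 1 and 47.3 to 49.7 CPM in the other mice. Macf1, on the other side, had 442.8 CPM in deficient mouse 1 and 447.0 to 604.2 CPM in the other mice.

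Ndufs5 has a near-identical processed pseudogene, BC002163 on chromosome 16, which stood at 0 counts in every library. The coding sequences, compared over 318 bases from the GRCm38 transcripts, differ at 2 bases. Both fall in the first 120 coding bases, which are shown because the coding sequences are otherwise the same. Capitals mark the differing bases.
Ndufs5: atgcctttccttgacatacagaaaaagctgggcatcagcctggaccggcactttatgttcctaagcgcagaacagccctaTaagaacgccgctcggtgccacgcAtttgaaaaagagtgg
BC002163: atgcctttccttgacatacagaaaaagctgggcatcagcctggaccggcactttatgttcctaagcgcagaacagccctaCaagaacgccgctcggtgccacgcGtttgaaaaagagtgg
A read that lies wholly within identical sequence cannot be assigned to 1 locus by its bases. How such reads were counted is not stated in the labels. In all, 41.2% of the 50-base windows of the Ndufs5 transcript also occur in another gene.

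**Figure D3:**
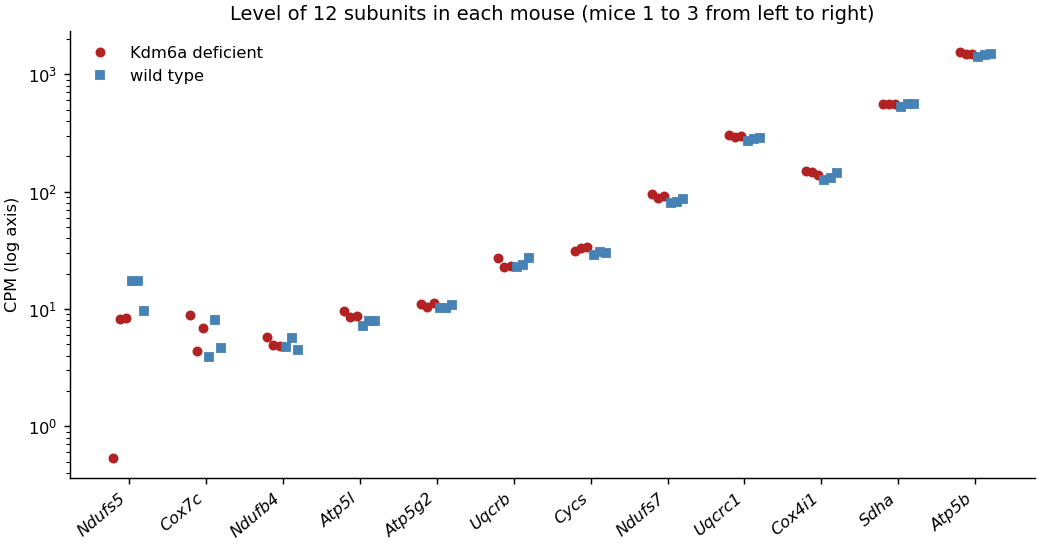
The level of 12 subunits is plotted in CPM on a log axis, with mice 1 to 3 of each genotype from left to right (red circles Kdm6a deficient, blue squares wild type). For most genes the 6 mice lie close together, from 5.06 CPM for Ndufb4 to 1474 CPM for Atp5b on average, while Ndufs5 spreads from 0.54 to 17.4 CPM.

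Complex II, succinate dehydrogenase, is shared with the tricarboxylic acid cycle and has no mitochondrially encoded subunit. In the deficient mice Sdha and Sdhd had the smallest SD relative to the mean of all subunits, at 0.156% and 0.194%, and Sdhb and Sdhc varied by 3.09% and 4.07%. In the wild-type mice Sdha and Sdhd varied by 3.18% and 2.09%, and Sdhb and Sdhc by 6.28% and 5.91%. The smallest values were picked by ranking all tested subunits, with 3 mice per group, and a difference in spread was not tested. Sdha, the flavoprotein that oxidises succinate, had 555.0, 556.0 and 556.7 CPM in the deficient and 525.7, 556.5 and 554.9 CPM in the wild-type mice. The groups overlapped because wild-type mouse 2 stood among the deficient mice (log2 fold change 0.027, SE 0.041, adjusted p = 0.966 by edgeR). Wild-type mouse 3 was just below the deficient mice, and wild-type mouse 1 was the lowest. Sdhd, one of the membrane anchors, had 103.6, 104.0 and 103.9 CPM against 98.6, 97.9 and 101.8 CPM. It was the only complex II gene whose groups did not overlap, at a log2 fold change of 0.062 (SE 0.045, adjusted p = 0.903 by edgeR). Sdhb, the iron-sulfur subunit, and Sdhc, the other anchor, overlapped at 0.047 (SE 0.054) and 0.0042 (SE 0.055).

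Complex III passes electrons from ubiquinol to cytochrome c, and 8 of its 9 genes had a log2 fold change above 0. Uqcrc1, a core structural protein, had 304.1, 291.1 and 299.9 CPM in the deficient and 270.2, 281.5 and 285.1 CPM in the wild-type mice. Every deficient mouse was above every wild-type mouse, at 7.0% more on average and a log2 fold change of 0.097 (SE 0.044, unadjusted p = 0.0443 and adjusted p = 0.841 by edgeR). Uqcrc2, its partner, also separated the groups, with 276.3, 268.8 and 279.8 CPM against 256.3, 252.0 and 268.7 CPM (log2 fold change 0.086, SE 0.045, adjusted p = 0.867 by edgeR). The margin was narrow, since deficient mouse 2 and wild-type mouse 3 were nearly equal. Uqcrh, the hinge protein that helps cytochrome c dock, was the third to separate, at 0.086 (SE 0.047). Cyc1, the haem subunit that hands the electron on, and Uqcr11, a small subunit, overlapped at 0.089 (SE 0.049) and 0.105 (SE 0.055).

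Cytochrome c carries single electrons between complexes III and IV and is also released in apoptosis. Its somatic gene, Cycs, had 31.2, 33.3 and 33.5 CPM in the deficient and 28.9, 30.6 and 29.7 CPM in the wild-type mice. The groups did not overlap, at a log2 fold change of 0.14 (SE 0.060, unadjusted p = 0.0398 and adjusted p = 0.834 by edgeR). Its order among the mice differed from that of most subunits, because deficient mouse 1 was the lowest of the deficient group. Cycs has 4 near-identical copies elsewhere in the genome, which together held 3 counts.

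Complex IV, cytochrome c oxidase, had log2 fold changes from -0.27 to 0.29 and no gene whose groups separated. Cox4i1, the widely expressed form of subunit IV, had 150.8, 147.5 and 139.1 CPM in the deficient and 125.2, 131.8 and 144.2 CPM in the wild-type mice. Wild-type mouse 3 stood above deficient mouse 3, and the log2 fold change was 0.12 (SE 0.057, unadjusted p = 0.0476 and adjusted p = 0.85 by edgeR). Cox7b, a small X-linked subunit, had 167.6, 167.1 and 150.8 CPM against 136.0, 146.9 and 160.4 CPM (log2 fold change 0.13, SE 0.063, adjusted p = 0.856 by edgeR). The groups overlapped in the same way. Cox7a2, Cox6c and Cox6b1 stood at 0.089 (SE 0.055), 0.073 (SE 0.068) and 0.061 (SE 0.050). Cox8a and Cox6a1, the most abundant of the complex per length, stood at 0.0040 (SE 0.089) and 0.013 (SE 0.056), and Cox7a2l at -0.032 (SE 0.055).

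The low isoforms of complex IV were measured with few counts. Cox6b2, known from testis, had 2.28, 2.27 and 2.79 CPM in the deficient and 2.97, 3.14 and 2.76 CPM in the wild-type mice. Wild-type mouse 3 lay just below deficient mouse 3, so the groups overlapped, at a log2 fold change of -0.27 (SE 0.17, unadjusted p = 0.125 and adjusted p = 0.891 by edgeR). Its share of the Cox6b1 and Cox6b2 level per length was 1.503% ± 0.205 in the deficient and 1.89% ± 0.202 in the wild-type mice (SD, n = 3 each). Cox4i2, Cox6a2, Cox7a1, Cox7b2 and Cox8b had standard errors of 0.24 to 0.41 on the log2 scale, too wide to show a difference of the size seen in the main isoforms.

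In every mouse the widely expressed isoform was far above its partner. Per kilobase of transcript, Cox4i1 exceeded Cox4i2 by 81.9-fold to 123.3-fold over the 6 mice, Cox6b1 exceeded Cox6b2 by 47.5-fold to 73.2-fold, and Cox7a2 exceeded Cox7a1 by 28.8-fold to 59.5-fold. Cox6a1 was 389.1-fold to 1215-fold above Cox6a2, and Cox8a was 371.2-fold to 1015-fold above Cox8b; the low form of either pair is typical of heart and skeletal muscle. Ndufa4 was 152.8-fold to 274.4-fold above Ndufa4l2, a relative known as a hypoxia-induced gene, and Cox7b was 73.4-fold to 296.6-fold above Cox7b2. The ranges of the 2 genotypes overlapped for each of these 7 pairs, and no ratio was tested. Of 15 striated and cardiac muscle markers, 9 had enough counts to be tested and Actc1 stood at 0 in every library. All 15 together summed to 12.5 to 15.1 CPM in the deficient and 15.4 to 16.7 CPM in the wild-type mice. Of the 9 tested, 4 had a log2 fold change above 0. The part of these markers in the levels of the muscle isoforms was not tested.

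**Figure D4:**
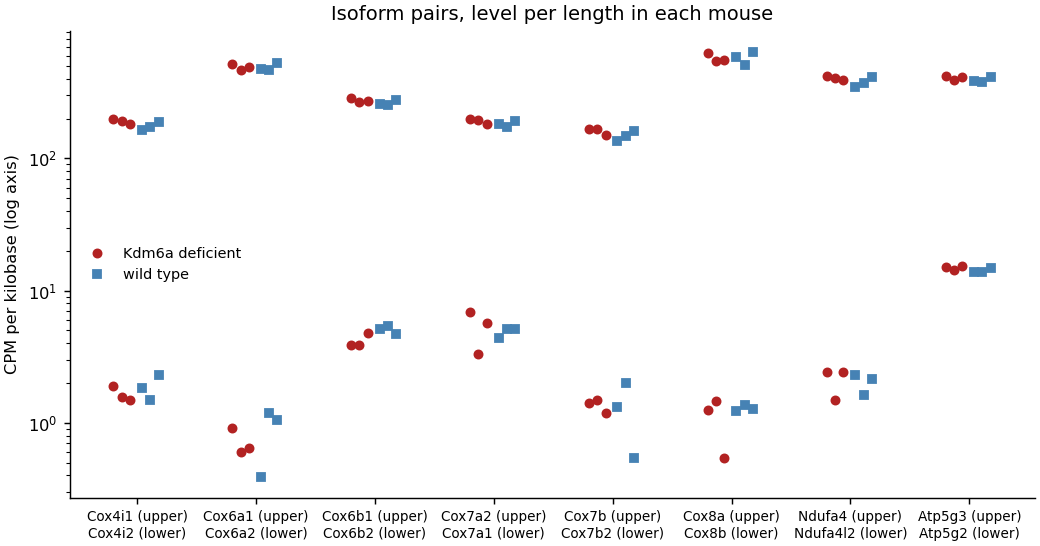
Levels per length of 8 isoform pairs in each mouse, in CPM per kilobase on a log axis, with the more abundant gene of each pair above and its partner below (red circles Kdm6a deficient, blue squares wild type). The abundant forms vary little between mice, while Cox6a2, Cox7b2 and Cox8b, near 1 CPM per kilobase, scatter widely.

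Complex V, the ATP synthase, held the most abundant subunit of the chain. Atp5b, the catalytic beta subunit, had 1561, 1489 and 1477 CPM in the deficient and 1393, 1449 and 1474 CPM in the wild-type mice. The groups did not overlap, but deficient mouse 3 and wild-type mouse 3 were almost equal (log2 fold change 0.069, SE 0.041, adjusted p = 0.891 by edgeR). Atp5f1, subunit b of the stalk that holds the catalytic head still, had 186.7, 186.7 and 184.4 CPM against 170.3, 175.9 and 179.5 CPM and separated the groups more widely (log2 fold change 0.086, SE 0.045, adjusted p = 0.864 by edgeR). With the length and GC correction, however, its log2 fold change was 0.013, and that of Atp5b was 0.052. Atp5c1, the rotating gamma subunit, and Atp5o, which joins the stalk to the head, overlapped at 0.072 (SE 0.045) and 0.099 (SE 0.056). Atp5s, a coupling factor rather than a subunit, stood at 0.147 (SE 0.086).

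Atp5l, subunit g of the membrane part, had the largest positive fold change of complex V. Its counts were 214, 209 and 176 in the deficient and 161, 146 and 190 in the wild-type mice, or 9.55, 8.49 and 8.62 CPM against 7.14, 7.91 and 7.95 CPM. Every deficient mouse was above every wild-type mouse, at a log2 fold change of 0.21 (SE 0.10, unadjusted p = 0.058 and adjusted p = 0.856 by edgeR). This value is uncertain, since 68.5% of its 50-base windows occur in other genes and 11 near-identical copies are annotated. Subunit c, the proton-carrying ring, is made from Atp5g1, Atp5g2 and Atp5g3, which encode the same mature protein. Atp5g3 held 94.1% to 94.5% of their summed level per length in every mouse, Atp5g2 held 3.37% to 3.55% and Atp5g1 held 2.08% to 2.46%. These shares are uncertain, since 87.4% of the 50-base windows of Atp5g2 occur in other genes, beside 0% for Atp5g3. The level of Atp5g1 was divided by a transcript of 4715 bases, and that of Atp5g3 by 714 bases. The shares differed between the genotypes by less than the spread between mice, with Atp5g3 at 94.3% ± 0.237 in the deficient and 94.2% ± 0.0722 in the wild-type mice (SD, n = 3 each).

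Of all 86 subunits, 12 had every deficient mouse above every wild-type mouse (14.0%, beside the 5.7% of all genes) and 1, Ndufs5, had every deficient mouse below (beside 5.49% of all genes). The 12 were Ndufs7, Ndufb11, Ndufs1 and Ndufv2 of complex I, Sdhd of complex II, Uqcrc1, Uqcrc2 and Uqcrh of complex III, Cycs, and Atp5l, Atp5f1 and Atp5b of complex V. Complex IV gave 0 of 17.

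The levels of the subunits differed over a wide range although the complexes are built with fixed numbers of each protein. Per kilobase of transcript, the mean over the 6 mice was highest for Atp5b at 769.3 CPM, then Cox8a at 575.1, Cox6a1 at 491.2, Atp5a1 at 442.7, Atp5g3 at 400.5 and Ndufa4 at 392.3. The median level per length was 91.0 CPM per kilobase for complex I, 101.4 for complex II, 140.8 for complex III, 115.3 for complex IV and 112.6 for complex V. Cycs stood at 9.99 CPM per kilobase, and 11 tested subunits were under 10. Of these 11, 7 were the low isoforms named above, and the others were Ndufab1, Ndufb4, Atp5g1 and Cycs. The principal transcript of Atp5g1 is 4715 bases long, and its level per length depends on that choice.

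Low levels were frequent where the sequence is shared with other genes. The 11 subunits with at least 25% of their 50-base windows in another gene had a median of 19.5 CPM per kilobase, and the 54 subunits with under 1% had a median of 108.5. In the first set were Atp5g2 at 14.6, Atp5l at 15.2, Cox7c at 11.3, Cycs at 9.99 and Ndufb4 at 5.21 CPM per kilobase, and also Atp5h at 78.2 and Cox5b at 76.6. In all, 26 of the 89 members have a near-identical copy, and nearly all of the copies with a row of their own stood at 0 counts. The exceptions were Gm10250, a copy of Atp5h with 15 counts in all, Gm10053, a copy of Cycs with 3, Senp6, which shares a stretch with Atp5l, and Atp5l itself, the counterpart of its pseudogenes. The 62 tested members without a copy had a median log2 fold change of 0.062. Cox7c, chosen for display after its values were seen, had 197, 107 and 140 counts in the deficient and 88, 149 and 110 counts in the wild-type mice. Its first 120 coding bases are shown beside those of Gm10012, a pseudogene on chromosome 17 with 0 counts in every library, because 2 differing bases in 189, in capitals, are all that separates the coding sequences.
Cox7c: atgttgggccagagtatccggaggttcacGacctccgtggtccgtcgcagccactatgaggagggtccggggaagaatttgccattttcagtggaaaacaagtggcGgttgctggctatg
Gm10012: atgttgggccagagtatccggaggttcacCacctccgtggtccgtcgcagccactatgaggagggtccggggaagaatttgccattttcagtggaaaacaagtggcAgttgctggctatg
What share of the reads from these genes was counted, and whether it differed between libraries, was not tested.

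**Figure D5:**
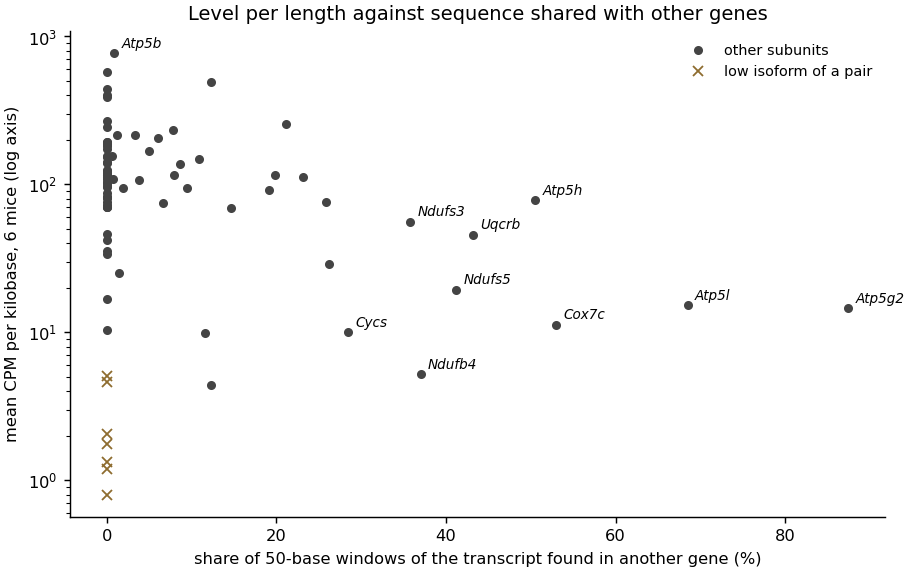
Each point is 1 tested subunit, with the share of 50-base windows of its transcript that also occur in another gene on the horizontal axis and its mean level over 6 mice, in CPM per kilobase on a log axis, on the vertical axis. Crosses mark the low isoform of a pair. Apart from these crosses, the lowest subunits, such as Ndufb4, Cox7c, Atp5g2 and Atp5l, lie mostly to the right.

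Promoters were read where RefSeq gave one, from 250 bases before to 50 after the start site (GRCm38.p6), for 71 of the 89 members and 27025 genes in all. The nuclear respiratory factor NRF1, ETS factors such as GABPA, and YY1 are known regulators of respiratory chain genes. The NRF1 letters (GCGC, any base, TGCGC) were found on either strand in 17 members (23.9%, beside 5.19% of all genes with a promoter), the ETS letters CCGGAAG in 16 (22.5%, beside 9.93%) and the YY1 letters AAGATGGCG in 8 (11.3%, beside 1.64%). At least 1 of the 3 was present in 35 members (49.3%, beside 15.1%), and the TATA letters TATAAA in 7 (9.86%, beside 15.7%). A match describes the letters only, and no binding was measured in this study.

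The promoters of 5 members are shown 5′ to 3′ on the strand of the gene, with every match to these letters in capitals. Ndufs7, Uqcrc1 and Ndufs8 are each an example of 1 motif among the members of small p, and Cox8a and Cox8b are an isoform pair of very different level.
Ndufs7 (chr10:80249199-80249498, plus strand): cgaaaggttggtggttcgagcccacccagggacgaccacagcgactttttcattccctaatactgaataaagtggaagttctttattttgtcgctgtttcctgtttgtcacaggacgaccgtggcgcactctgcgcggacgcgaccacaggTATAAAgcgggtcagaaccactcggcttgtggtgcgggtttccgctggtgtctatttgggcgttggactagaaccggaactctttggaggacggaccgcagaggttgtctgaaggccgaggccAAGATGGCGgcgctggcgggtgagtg
Uqcrc1 (chr9:108936398-108936697, plus strand): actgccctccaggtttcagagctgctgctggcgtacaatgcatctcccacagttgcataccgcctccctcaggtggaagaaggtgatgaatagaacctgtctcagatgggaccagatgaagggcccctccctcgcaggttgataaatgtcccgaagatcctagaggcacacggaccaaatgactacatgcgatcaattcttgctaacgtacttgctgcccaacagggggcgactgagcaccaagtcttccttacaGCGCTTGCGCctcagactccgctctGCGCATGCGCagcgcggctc
Ndufs8 (chr19:3912725-3913024, minus strand): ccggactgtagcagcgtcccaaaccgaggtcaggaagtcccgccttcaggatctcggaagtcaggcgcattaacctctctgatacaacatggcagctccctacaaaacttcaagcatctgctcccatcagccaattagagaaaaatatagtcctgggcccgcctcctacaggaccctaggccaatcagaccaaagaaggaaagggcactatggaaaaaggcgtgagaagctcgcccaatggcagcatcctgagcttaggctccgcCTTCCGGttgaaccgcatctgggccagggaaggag
Cox8a (chr19:7217567-7217866, minus strand): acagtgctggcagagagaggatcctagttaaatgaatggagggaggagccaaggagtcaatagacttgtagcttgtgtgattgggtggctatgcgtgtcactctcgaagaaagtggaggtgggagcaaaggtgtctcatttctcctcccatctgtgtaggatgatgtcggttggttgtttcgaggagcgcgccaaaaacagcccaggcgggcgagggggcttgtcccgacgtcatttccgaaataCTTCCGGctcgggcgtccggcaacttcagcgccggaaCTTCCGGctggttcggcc
Cox8b (chr7:140900397-140900696, minus strand): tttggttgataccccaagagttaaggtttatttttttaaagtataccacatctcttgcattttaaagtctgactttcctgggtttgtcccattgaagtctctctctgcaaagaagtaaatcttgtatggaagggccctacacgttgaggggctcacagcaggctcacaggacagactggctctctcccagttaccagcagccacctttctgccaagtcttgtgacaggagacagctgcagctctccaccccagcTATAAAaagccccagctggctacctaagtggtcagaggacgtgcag
In Ndufs7 the YY1 letters lie at bases 25 to 33 after the start site, and TATA letters at -99 to -94. Uqcrc1 has NRF1 letters at 6 to 15 and at 31 to 40. Ndufs8 has the ETS letters at 16 to 22, read on the opposite strand. Cox8a has them at -5 to 2 and at 33 to 39, also on the opposite strand, and Cox8b has none of the 3 motifs but a TATA match at 5 to 10.

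Of the 86 subunits, 3 lie on the X chromosome, where Kdm6a also lies. Ndufa1, Ndufb11 and Cox7b had log2 fold changes of 0.12 (SE 0.0595), 0.12 (SE 0.046) and 0.13 (SE 0.063), and their summed level was 311.5, 302.1 and 289.0 CPM in deficient mice 1 to 3 and 264.2, 272.3 and 290.4 CPM in wild-type mice 1 to 3. Wild-type mouse 3 stood just above deficient mouse 3. Ndufb11 begins 2.34 Mb beyond the end of Kdm6a. Over all X-linked genes tested, 324 of 522 (62.1%) had a log2 fold change above 0.

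Other genes of mitochondrial energy metabolism were read from the same fit, by lists. Their medians and sums are given without the correction for transcript length and GC content. All 16 assembly factors of complex I, which build the complex without staying in it, were tested, and 14 had a log2 fold change above 0, with a median of 0.11. Ndufaf5, which modifies a complex I core subunit, had the smallest p of the list, at 35.8 ± 0.188 and 31.3 ± 0.788 CPM (SD, n = 3 each) and a log2 fold change of 0.195 (SE 0.056, adjusted p = 0.534 by edgeR). The summed level of the list was 381.4, 387.4 and 384.5 CPM in the deficient and 356.8, 363.5 and 359.8 CPM in the wild-type mice, so here, unlike the subunits themselves, the groups did not overlap. Enzymes of the tricarboxylic acid cycle gave 19 of 19 above 0 with a median of 0.065, and also did not overlap in their sum, with 3676 to 3699 CPM against 3474 to 3635 CPM. Suclg1, a subunit of succinyl-CoA ligase, led this list at 122.7 ± 0.436 and 114.4 ± 1.18 CPM (SD, n = 3 each; log2 fold change 0.10, SE 0.045, adjusted p = 0.834 by edgeR).

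The remaining lists had medians closer to 0. Carriers and import proteins of the mitochondrial membranes had 22 of 25 above 0 and a median of 0.034, and complex IV assembly factors 16 of 21 and 0.024. Assembly factors of complexes II, III and V had 5 of 10 above 0, and the regulators of mitochondrial biogenesis 8 of 16. Of the 13 subunits encoded by the mitochondrial genome, 6 were above 0, with a median of -0.0040, and their sum ranged from 29887 to 34175 CPM in the deficient and from 30805 to 35072 CPM in the wild-type mice. The per-mouse order of these transcripts was not that of the nuclear subunits, since wild-type mouse 1 was the highest. Glycolysis had 11 of 16 above 0 and a median of 0.0032. In these 8 lists no gene passed 5% FDR by edgeR. At an unadjusted p under 0.05, 2 of 16 assembly factors of complex I and 1 of 21 of complex IV were higher. So was 1 of 19 enzymes of the tricarboxylic acid cycle, beside 2.56% of all genes higher at that p. Lower were 1 of 10 assembly factors of complexes II, III and V and 1 of 16 glycolytic genes, beside 3.3% of all genes.

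Markers of other cells and regions were read in the same way. Blood cell markers had 9 of 10 log2 fold changes above 0. They summed to 76.2 to 97.2 CPM in the deficient and 63.4 to 78.3 CPM in the wild-type mice. This sum was highest in deficient mouse 1 and lowest in wild-type mouse 1, as was the summed CPM of the subunits. Their per-gene median, taken as for the subunits above, was also highest in deficient mouse 1, at 0.544. It was lowest in wild-type mouse 3, at -0.083, beside -0.023 in wild-type mouse 1. The subunits had the opposite order in these 2 mice, at 0.069 and -0.0496. Cerebellum markers had 13 of 15 above 0 and summed to 2716 to 3273 CPM against 2710 to 3006 CPM, and markers of endothelial and mural cells had 9 of 12 above 0 and summed to 447.2 to 470.8 CPM against 404.6 to 462.7 CPM. Oligodendrocyte and microglia markers had 3 of 12 and 2 of 10 above 0, with sums of 8342 to 9279 CPM against 8782 to 9817 CPM and of 284.1 to 322.6 CPM against 305.0 to 332.1 CPM. Neuron and astrocyte markers had 9 of 14 and 5 of 10. In these lists no gene passed 5% FDR by edgeR. At an unadjusted p under 0.05, 5 of 15 cerebellum, 3 of 10 blood cell and 1 of 14 neuron markers were higher. So was 1 of 12 endothelial and mural cell markers, beside 2.56% of all genes higher at that p. Lower were 1 of 10 microglia and 2 of 9 muscle markers, beside 3.3% of all genes. Apart from Actc1 of muscle, no marker stood at 0 in every library. Their part in the levels of the subunits was not tested.

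In the authors' deposited table, 78 of the members had an adjusted p, the smallest of them 0.9997, and 0 were under 0.05, beside 18 of all rows. The same table gives 3 members an unadjusted p under 0.05, which are Ndufs7 at 0.0192, Uqcrc1 at 0.0484 and Ndufb11 at 0.0491.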

How the data were processed

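Per the labels' protocols, RNA of 6 brains was purified on Qiagen columns and sequenced from TruSeq RNA libraries. GRCm38 and DESeq2 are named in the submitters' processing notes, and no source used here gives the aligner, counter, annotation or strand setting. The table holds raw counts per gene symbol, which the authors deposited without normalization. Per the file headers, the other columns are the authors' DESeq2 results: a mean normalized count (a signal over all 6 libraries), a log2 fold change with its SE, a test score, and a p-value with its adjusted p-value. The authors' log2 fold changes divide wild type by deficient, the opposite of those given here.

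Mice were grouped by their titles and genotype labels, 3 per group. Nothing says whether replicates came from separate litters or days. Mouse numbers were not used as pairs: the correlations of deviations between same-numbered mice were -0.0791, 0.167 and 0.0805. Counts of all genes were tested with edgeR 4.0.16 in R 4.3.3 (TMM, default expression filter, robust quasi-likelihood F test, two-sided, Benjamini-Hochberg over 15030 genes, threshold 0.05). The SE is the absolute log2 fold change over the root of F. CPM use TMM-scaled totals, and per-mouse log2 CPM a prior count of 2. The code was tested on simulated counts. Levels per length use the principal transcript of each gene in GENCODE M21. A copy was called near-identical where a transcript of a different gene was at least 95% identical over at least 200 bases (blastn 2.17.0). It makes a value uncertain, as does an exon overlap on the opposite strand, which 27 members have, among them Ndufb11, Ndufb5, Ndufs1, Uqcrc2, Cox4i1, Atp5f1, Atp5l and Atp5o.

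The members and the 16 lists of other genes (237 genes, 235 in the table) were chosen with earlier results of these data known. Genes are described where they have the smallest p of their complex (up to 6), the highest or lowest level per length, an isoform in a pair, membership of complex II, a direction against the majority at an unadjusted p under 0.25, or 0 counts. Ndufv2, and the genes given for their level or shared sequence, were added after their values were seen. Alternatives were RLE size factors, no filter, a mean of at least 1 CPM, DESeq2 1.42.0, limma-voom (limma 3.58.1), blocking on mouse number, leaving out each mouse, a length and GC correction, copies added or left out, a threshold of 0.10 and a prior count of 0.5. Leaving out Ndufs5 from the mean over the subunits was chosen after seeing its values.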

Additional observations from a re-analysis of the deposited data

How the results depend on the processing

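No subunit passed 5% FDR in any of the 14 alternative fits across all genes, or at the threshold of 0.10. The number of subunits above 0 was 64 to 79 of 86 wherever all of them were tested, and their median log2 fold change 0.035 to 0.097. The number higher at an unadjusted p under 0.05, 6 as reported, was 3 with DESeq2 and 3 with the length and GC correction, and 1 to 21 when 1 mouse was left out. Adding the counts of pseudogene copies could change little by construction, since nearly all of them stood at 0. Of 585 values of 42 described subunits, 566 had the direction and side of the threshold given above. The other 19 changed sign, and the cause was not tested. With the length and GC correction this was Cox8a at -0.0091. When 1 mouse was left out, the log2 fold change ranged from -0.040 to 0.027 for Atp5g1, -0.031 to 0.069 for Cox6a1, -0.13 to 0.38 for Cox7a1, -0.070 to 0.0093 for Cox7a2l, -0.25 to 0.57 for Cox7b2, -0.082 to 0.080 for Cox8a, -0.50 to 0.078 for Cox8b, -0.086 to 0.25 for Ndufa4l2 and -0.031 to 0.053 for Sdhc. That of Kdm6a ranged from -0.55 to -0.46, and without wild-type mouse 2 its adjusted p was 0.05001 by edgeR. Over all genes, the 7 calls became 25 without a filter, 20 with DESeq2 and 3 to 17 when 1 mouse was left out. With the replicate block, where numbers pair no mice by the labels, they became 15, with 76 subunits above 0, 0 past 5% FDR, 4 higher at an unadjusted p under 0.05 and a median of 0.063. The mean log2 CPM of the subunits, taken over the mice, was higher by 0.031 in the deficient group, by 0.030 with a prior count of 0.5 and by 0.055 without Ndufs5. Subunits under 3 CPM, such as Cox6a2 and Cox8b, are limited by depth.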

Other observations

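The genes given here were among those with the smallest unadjusted p of their list, although none passed 5% FDR. Of these only Atpaf1, Acad9, Coa7 and Pfkl had an unadjusted p under 0.05 by edgeR. Atpaf1, which helps assemble the catalytic head of ATP synthase, was at 29.9 ± 1.20 CPM in the deficient and 33.7 ± 2.41 CPM in the wild-type mice (SD, n = 3 each; log2 fold change -0.17, SE 0.067, edgeR adjusted p = 0.774), against the direction of most ATP synthase subunits. Acad9, an acyl-CoA dehydrogenase that serves in complex I assembly, was at 48.1 ± 2.03 against 44.0 ± 0.754 CPM, and Coa7, an assembly factor of complex IV, at 16.8 ± 0.652 against 14.6 ± 0.866 CPM. Timm23, the channel of the inner membrane import machinery, had a log2 fold change of 0.34 (SE 0.17) from a low level of 2.53 ± 0.380 CPM in wild-type mice. Of glycolysis, Pfkl, the liver-type phosphofructokinase, was at 170.5 ± 5.11 against 186.0 ± 5.09 CPM (log2 fold change -0.13, SE 0.047, edgeR adjusted p = 0.771). Eno1, an enolase, was at 108.2 ± 3.18 against 139.4 ± 31.4 CPM, with a spread among the wild-type mice about as large as the difference. It had 103.5, 161.5 and 153.3 CPM in wild-type mice 1 to 3. The highest was wild-type mouse 2, the library in which Eno1b was low by the rule used for Ndufs5. Sequence shared between Eno1 and Eno1b was not examined, so this value is uncertain. Among the subunits encoded in the mitochondrion, mt-Nd5 and mt-Cytb stood at -0.11 (SE 0.058) and -0.065 (SE 0.050).

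Cox7c and Ndufs5 were the subunits with a mean over 5 CPM and an SD above 30% of the mean in both groups, at 33.5% and 40.4% for Cox7c in the deficient and wild-type mice. Each has a processed pseudogene that differs from its coding sequence by 2 bases. Some other subunits with near-identical copies varied far less. Atp5g2, with 87.4% of its 50-base windows in other genes, varied by 4.14% and 4.2% in the deficient and wild-type mice. Atp5l, with 68.5%, varied by 6.53% and 5.91%. Whether the copies bear on the spread was not tested.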
